A study of Mus musculus with 8 samples.

Results

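Open chromatin at 10 genes of antigen presentation by the major histocompatibility complex (MHC) was followed in mouse retinal ganglion cells (RGCs). The genes were chosen by name: H2-K1, H2-D1, B2m, Tap1, Tap2 and Nlrc5 for class I, and Ciita, H2-Ab1, H2-Aa and Cd74 for class II. A member region was any stretch of open chromatin that touched one of these genes or the 5 kb on either side of it. Of 189914 regions in the whole series, 66 met this rule, 34 at the class I genes and 32 at the class II genes, and none was shared between genes.

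All 8 libraries came from RGCs of adult C57BL/6J mice that had received an adeno-associated virus (AAV2) in the vitreous, followed 2 weeks later by optic nerve crush (ONC). Cells were sorted 3 days after the ONC with an antibody to Thy1, and 50000 cells went into each library. The virus carried GFP as the control (n = 3), the histone methyltransferase Ezh2 (n = 3), or Ezh2-Y726D, a form of Ezh2 without catalytic activity (n = 2), so the controls also carried a virus and a crushed nerve. The promoter of the viral transgene is not given in the sources used here, AAV2 also enters other retinal cells, and Thy1 is also carried by T cells. The labels call the libraries replicates without saying whether they came from separate animals, so p-values measure only the spread between these libraries, which may be technical.

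MHC class I molecules show peptides made inside a cell to cytotoxic T cells. Their heavy chains (H2-K1 and H2-D1) pair with B2m, and Tap1 and Tap2 together pump the peptides into the endoplasmic reticulum. Class II molecules, built of H2-Aa and H2-Ab1 chains and guarded by the invariant chain Cd74, show peptides taken up from outside to helper T cells and are a hallmark of professional antigen-presenting cells such as macrophages, dendritic cells and B cells. Nlrc5 and Ciita are related proteins that do not bind DNA on their own. They are recruited by factors that sit on X and Y boxes of MHC promoters, Nlrc5 for class I and Ciita for class II genes. Neurons are known for low MHC expression, which interferon can raise.

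The promoters of the 5 members with a RefSeq promoter entry are shown because each lay under a region open in all 8 libraries. They also hold matches to some of the boxes through which MHC genes are known to be switched on. Each runs from 250 bases before to 50 bases after the start site, 5′ to 3′ on the strand of the gene. Capitals mark matches to the Y box (ATTGG on either strand), the interferon-stimulated response element (GAAA, any pair of bases, GAAA), the X box, the TGACG core of a cyclic AMP response element and a kappaB site (GGGATTCCC). For H2-K1, the first of 2 RefSeq entries is shown. It lay at chr17:34000298-34000597 on the minus strand of GRCm38.p6, H2-D1 at chr17:35262844-35263143 on the plus strand, B2m at chr2:122147437-122147736 on the plus strand, Tap1 at chr17:34187306-34187605 on the plus strand and H2-Aa at chr17:34287774-34288073 on the minus strand.
H2-K1: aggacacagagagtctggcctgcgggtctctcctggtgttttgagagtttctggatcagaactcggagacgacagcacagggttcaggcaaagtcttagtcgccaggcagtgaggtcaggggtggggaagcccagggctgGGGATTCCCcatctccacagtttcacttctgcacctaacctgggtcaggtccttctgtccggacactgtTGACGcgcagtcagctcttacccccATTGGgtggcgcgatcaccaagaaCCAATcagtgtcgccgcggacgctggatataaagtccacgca
H2-D1: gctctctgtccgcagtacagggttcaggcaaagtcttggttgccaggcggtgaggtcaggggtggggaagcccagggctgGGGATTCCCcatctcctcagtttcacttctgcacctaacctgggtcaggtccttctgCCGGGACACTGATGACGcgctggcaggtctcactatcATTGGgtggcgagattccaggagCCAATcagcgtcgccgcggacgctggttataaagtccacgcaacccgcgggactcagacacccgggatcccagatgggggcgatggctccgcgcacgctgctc
B2m: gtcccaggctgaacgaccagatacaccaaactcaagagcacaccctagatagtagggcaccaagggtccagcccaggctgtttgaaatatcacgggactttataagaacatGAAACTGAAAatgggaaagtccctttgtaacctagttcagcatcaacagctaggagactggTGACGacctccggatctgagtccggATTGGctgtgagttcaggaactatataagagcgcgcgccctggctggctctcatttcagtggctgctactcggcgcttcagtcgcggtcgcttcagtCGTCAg
Tap1: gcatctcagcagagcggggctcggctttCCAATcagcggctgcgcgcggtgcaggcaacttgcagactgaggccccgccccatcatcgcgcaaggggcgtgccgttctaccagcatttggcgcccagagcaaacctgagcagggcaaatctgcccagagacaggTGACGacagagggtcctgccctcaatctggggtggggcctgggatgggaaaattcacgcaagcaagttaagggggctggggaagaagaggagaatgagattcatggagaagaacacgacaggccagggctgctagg
H2-Aa: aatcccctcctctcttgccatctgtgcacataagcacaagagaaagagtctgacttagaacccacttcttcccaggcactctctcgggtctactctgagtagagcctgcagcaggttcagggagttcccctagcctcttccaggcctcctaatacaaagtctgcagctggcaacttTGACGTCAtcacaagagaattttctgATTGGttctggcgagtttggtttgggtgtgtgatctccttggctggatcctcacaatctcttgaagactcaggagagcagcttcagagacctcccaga

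All 5 promoters held a Y box and a TGACG core, which were found in 37.4% and 20.8% of 32851 mouse promoters of the same length. In H2-Aa the Y box began at base −48 from the start site, downstream of TGACGTCA, where the core matched on both strands. The X box search, which matched 2.57% of all promoters, found H2-D1, at bases −113 to −100 from the start, and its last bases were part of the TGACG match. H2-K1 and H2-D1 shared the kappaB site, present in 0.353% of promoters, and B2m held the interferon element, present in 3.44%, at bases −139 to −130 from its start. These matches are letters in a window and do not show that a factor was bound. The TGACG and kappaB searches were added after the sequences had been seen.

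The libraries differed in which non-RGC marker genes were open at their ends. Of 20 RGC markers, 18 or 19 were open in every library. T cell markers (20 genes) were open in 16 to 19 cases in GFP, 19 to 20 with Ezh2 and 5 to 7 with Ezh2-Y726D, with summed peak heights, each in units of the genome-wide background, of 187 to 230, 333 to 392, and 87.7 to 113. Microglia and macrophage markers (20 genes) followed the same order, with 12 to 16, 16 to 18 and 4 to 5 open and summed heights of 155 to 179, 198 to 262, and 84.2 to 95.9. Cd3e, Cd3g, Cd8a and Cx3cr1 had a peak in all 6 GFP and Ezh2 libraries and in neither Ezh2-Y726D library. The microglia marker P2ry12 went another way, with a peak in every GFP and Ezh2-Y726D library and in no Ezh2 library, and Cd3d and Csf1r had none in GFP or in Ezh2-Y726D. B cell markers (15 genes) were open in 5 cases in each GFP and Ezh2 library and 3 in each Ezh2-Y726D library, and Ms4a1, Cd79a, Cd79b and Pax5 had no peak in any library. Of 10 dendritic cell markers, 4 to 6 were open in GFP and Ezh2 and 3 with Ezh2-Y726D. Endothelial markers (8 to 10 of 15) and Müller glia markers (9 of 10 in each library) hardly varied. Many of these immune cells are known to express MHC genes, and the lower counts at the MHC genes in Ezh2-Y726D given below came from the libraries with the fewest open T cell and microglia markers. The part of such cells in the MHC results was not tested, and in these bulk libraries fewer cells of a type and less open chromatin per cell cannot be told apart.

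**Figure D1:**
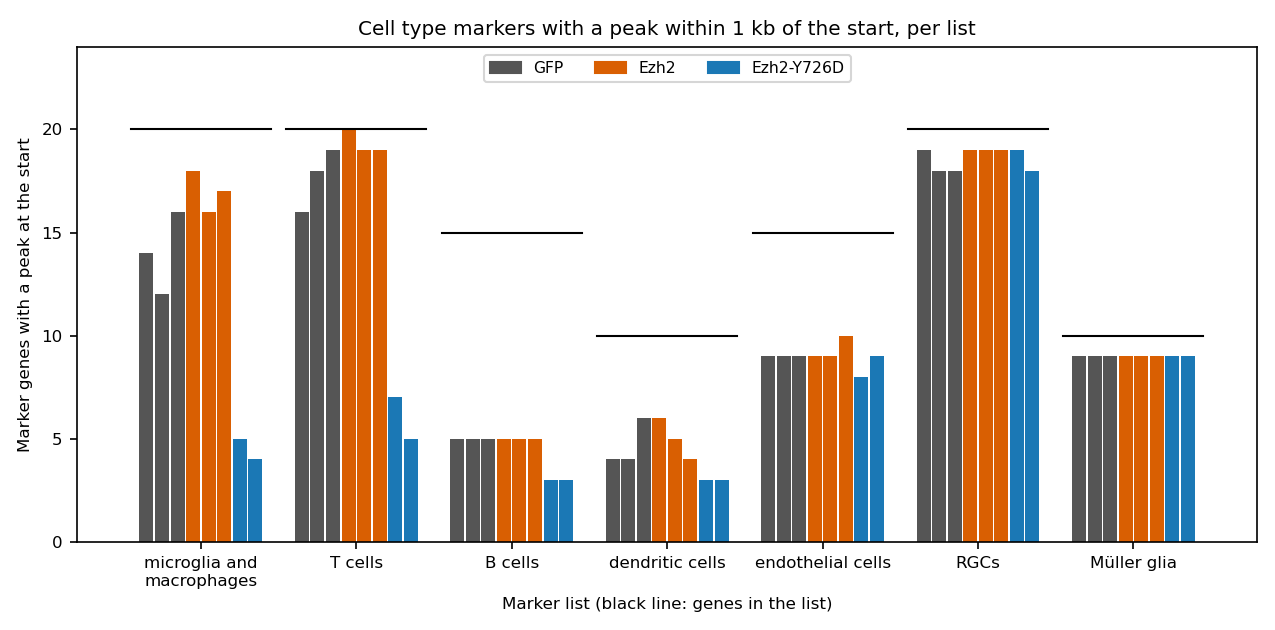
Marker genes open per library. Each bar is 1 library and the x axis is the marker list. The y axis is the number of genes of a list with a peak within 1 kb of the start. Either gene end was used where no start site was known. T cell and microglia markers were open least often in the 2 Ezh2-Y726D libraries (5 to 7 and 4 to 5 of 20), while RGC markers stayed at 18 to 19 of 20.

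Ezh2 libraries had the most, and Ezh2-Y726D libraries the fewest, open regions at the MHC genes. The 34 class I regions held a peak in 23, 23 and 30 cases in the 3 GFP libraries (25.3 ± 4.04, SD), in 30, 28 and 28 cases in the Ezh2 libraries (28.7 ± 1.15) and in 20 and 19 cases in the Ezh2-Y726D libraries (19.5 ± 0.707). The 32 class II regions held a peak in 13, 17 and 21 cases in GFP (17.0 ± 4.00), 24, 21 and 23 with Ezh2 (22.7 ± 1.53) and 12 in each Ezh2-Y726D library. In both classes the Ezh2-Y726D libraries lay below all the others, and GFP replicate 3 reached into the range of Ezh2. For class I the gap to GFP rested on Nlrc5, since without its regions the counts were 13, 13 and 17 of 21 in GFP, 17, 16 and 16 with Ezh2 and 13 in each Ezh2-Y726D library. Without Ciita the class II counts were 9, 10 and 12 of 17 in GFP, 13, 10 and 13 with Ezh2 and 8 in each Ezh2-Y726D library. Across all regions of the series the order was different, with 107916 to 129123 regions open in GFP, 121215 to 131089 with Ezh2 and 119970 to 124591 with Ezh2-Y726D. As a share, 57.4% of class I and 37.5% of class II regions were open on average in Ezh2-Y726D, against 64.4% of all regions, and 61.9% and 47.1% without Nlrc5 and Ciita. The corresponding shares were 74.5%, 53.1% and 61.1% in GFP, and 84.3%, 70.8% and 65.8% in Ezh2.

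Regions were then counted as gained when every library of the first group and none of the second had a peak, and as lost in the reverse case. Ezh2 against Ezh2-Y726D gave 14 gained member regions (21.2% of 66, with 8.96% of all regions gained) and 1 lost (1.52%, with 6.14% of all regions lost). They were 7 class I regions (5 at Nlrc5, and 1 each at B2m and Tap1) and 7 class II regions (5 at Ciita, and 1 each at H2-Aa and Cd74), and the lost one lay 3523 bp upstream of B2m, inside the gene Patl2. Without Nlrc5 and Ciita, 9.52% of class I and 11.8% of class II regions were gained, near the share of all regions. The gained regions numbered 7 of 51 member regions with a −log10 q of at least 5 and 7 of 59 with lists of equal length. Of those outside the regulators, the one inside Tap1 (34196522 to 34197093) had the highest summits, of 35 and 44 reads in 2 GFP libraries and 59, 49 and 54 with Ezh2. The others lay 2837 bp beyond B2m, 1420 bp beyond H2-Aa and inside Cd74 from 60805523 to 60806268. Ezh2-Y726D against GFP gave 4 lost regions (6.06%, with 4.72% of all regions lost), 3 at Nlrc5 and 1 at Ciita, and 0 gained, with 4.77% of all regions gained. Without GFP replicate 1 the lost regions numbered 9. Ezh2 against GFP gave 3 gained regions, all at Ciita (4.55%, with 2.72% of all regions gained), and 0 lost, with 1.68% of all regions lost. The 3 became 7 without GFP replicate 3 and 5 without Ezh2 replicate 1, and with both lists held to equal length there was none. The shares of all regions gained or lost at that −log10 q, at equal length or with a library left out were not computed. The comparisons share libraries, so they are not independent of one another.

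The regulators Nlrc5 and Ciita held most of the regions that came and went. Nlrc5 (chromosome 8, 94434335 to 94527272) had 13 regions, of which 10, 10 and 13 were open in GFP, 13, 12 and 12 with Ezh2, and 7 and 6 with Ezh2-Y726D. Both Ezh2-Y726D libraries lay below every other library, with a mean difference of −4.5 regions from GFP and of 5.83 between Ezh2 and Ezh2-Y726D. With 2 against 3 libraries the exact permutation test cannot go below p = 0.2, and it gave p = 0.2 for each of the 2 differences. Ciita (chromosome 16, 10480014 to 10531064) had 15 regions, of which 4, 7 and 9 were open in GFP, 11, 11 and 10 with Ezh2 and 4 in each Ezh2-Y726D library. All Ezh2 libraries lay above all GFP libraries, a difference of 4.00 regions with an exact permutation p = 0.1, the smallest that 3 against 3 allows, whereas Ezh2-Y726D overlapped with GFP.

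**Figure D2:**
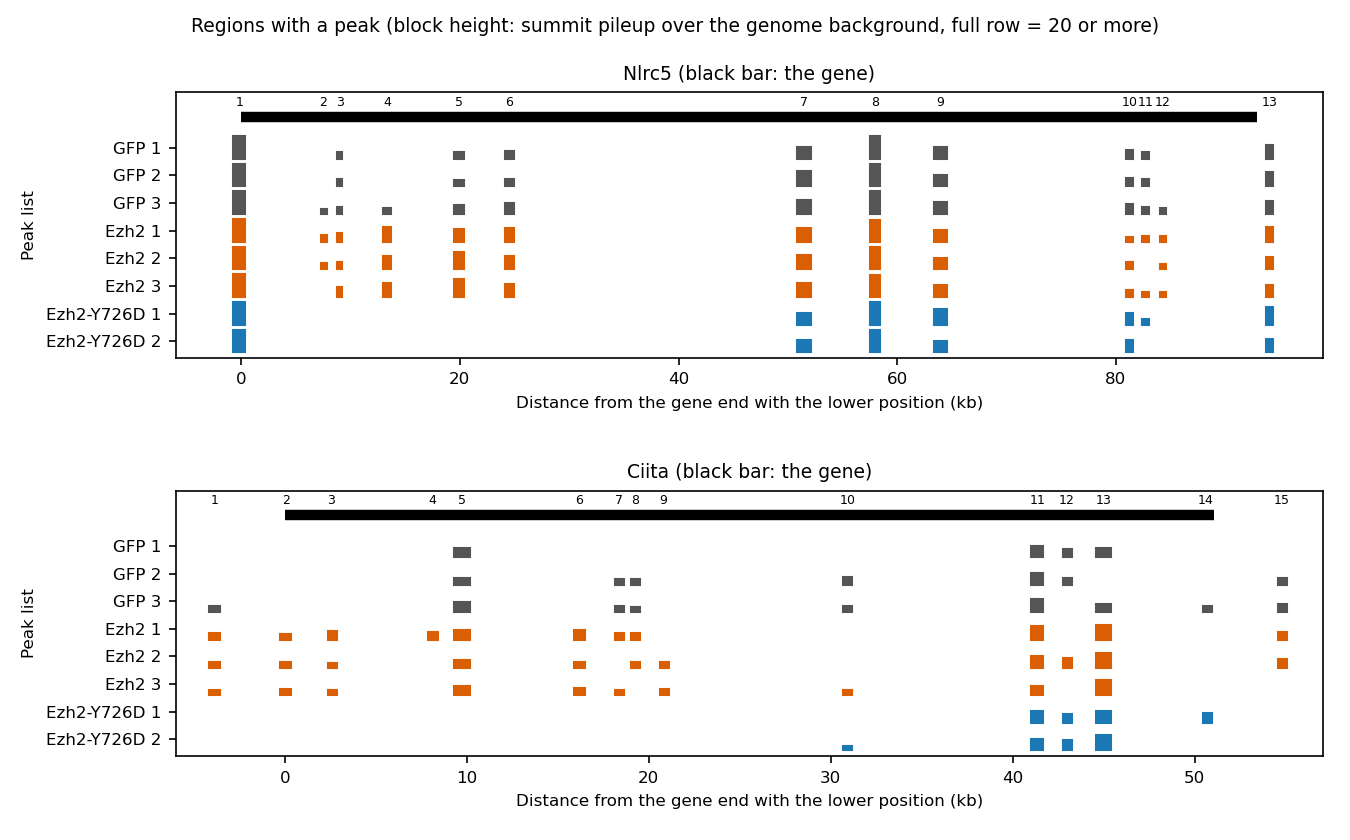
Peaks along Nlrc5 and Ciita in the 8 libraries. The x axis is the distance from the lower-numbered end of the gene in kb, and each row is 1 library. Each block is a region with a peak in that library, drawn over the whole merged region and at least 0.5 kb wide. Its height shows the summit pileup over the genome background and fills the row at 20 or more. Regions 3, 5 and 6 of Nlrc5 are filled in every GFP and Ezh2 row and empty in the 2 Ezh2-Y726D rows, and Ciita has 10 or 11 filled regions in each Ezh2 row.

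Inside Nlrc5, the regions from 94443081 to 94443605, from 94453849 to 94454685 and from 94458498 to 94459269 were open in all 6 GFP and Ezh2 libraries and in neither Ezh2-Y726D library. The second of these had summits 17, 14 and 30 reads high in GFP and 35, 51 and 58 with Ezh2. The Ezh2 summits all lay above those of GFP there, but no test was made on a region that was not open in all 8 libraries. The regions at 94447295 and 94518406 were open in all Ezh2 libraries, in GFP replicate 3 alone of the GFP libraries and in neither Ezh2-Y726D library. Not every region of Nlrc5 behaved this way. The one at the gene end (94433636 to 94434720) and the ones at 94485159, 94491838, 94497741, 94515243 and 94528022 were open in all 8 libraries.

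At Ciita, the region over the gene end (10479757 to 10480386) and those at 10482373 and 10495926 were open in all 3 Ezh2 libraries and in none of the other 5, with summits of 13 to 25 reads. The region at 10475882, 3557 bp beyond that end, was open in all Ezh2 libraries and in GFP replicate 3. Another, from 10489314 to 10490219, was open in all GFP and Ezh2 libraries, with summits of 26, 15 and 31 and of 26, 22 and 28 reads, and in neither Ezh2-Y726D library. The 3 regions seen in Ezh2 alone stood at fold percentiles of 5.83 to 58.9, so most were among the weaker peaks of their lists. Only the region from 10521043 to 10521687 was open in every library, at percentiles of 38.7 to 68.3 of its list.

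Over the whole series, the number of open regions in a gene window was a count whose groups often failed to overlap. Among 18172 protein-coding genes with at least 1 region in their window, 18.7% had more open regions in every Ezh2 than in every Ezh2-Y726D library and 7.68% had fewer. Of the 10 members, 6 had more (Tap1, Tap2, Nlrc5, Ciita, H2-Aa and Cd74) and 0 had fewer. Nlrc5 alone had fewer in Ezh2-Y726D than in GFP, where 10.0% of genes did, and 0 members had more, where 7.94% did. Ciita alone had more in Ezh2 than in GFP, where 7.40% of genes did, and 0 had fewer, where 2.16% did. H2-K1 had both of its regions open in all libraries.

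The regions at the start or end of the member genes were open nearly everywhere, and here the strength of the peaks was compared. The files give for each peak its fold, which is the number of reads stacked at the summit (the summit pileup) over the number expected from the surrounding DNA (the local background), each with 1 added. Folds were ranked within each library, as percentiles from 0 to 100 for display and as normal scores for the test, in which a difference of 1 is 1 SD of all regions. The fold, the pileup and the local background are given side by side because they moved differently at these genes. The ranking by fold was the planned one, and the ranking by pileup was added after the data had been seen. Of the 66 member regions, 25 were open in all 8 libraries and could be ranked, 17 class I (50.0%) and 8 class II (25%), against 36.6% of all regions. Regions that vanished from a group are thus not among them, so the counts that follow describe the 25 only.

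**Figure D3:**
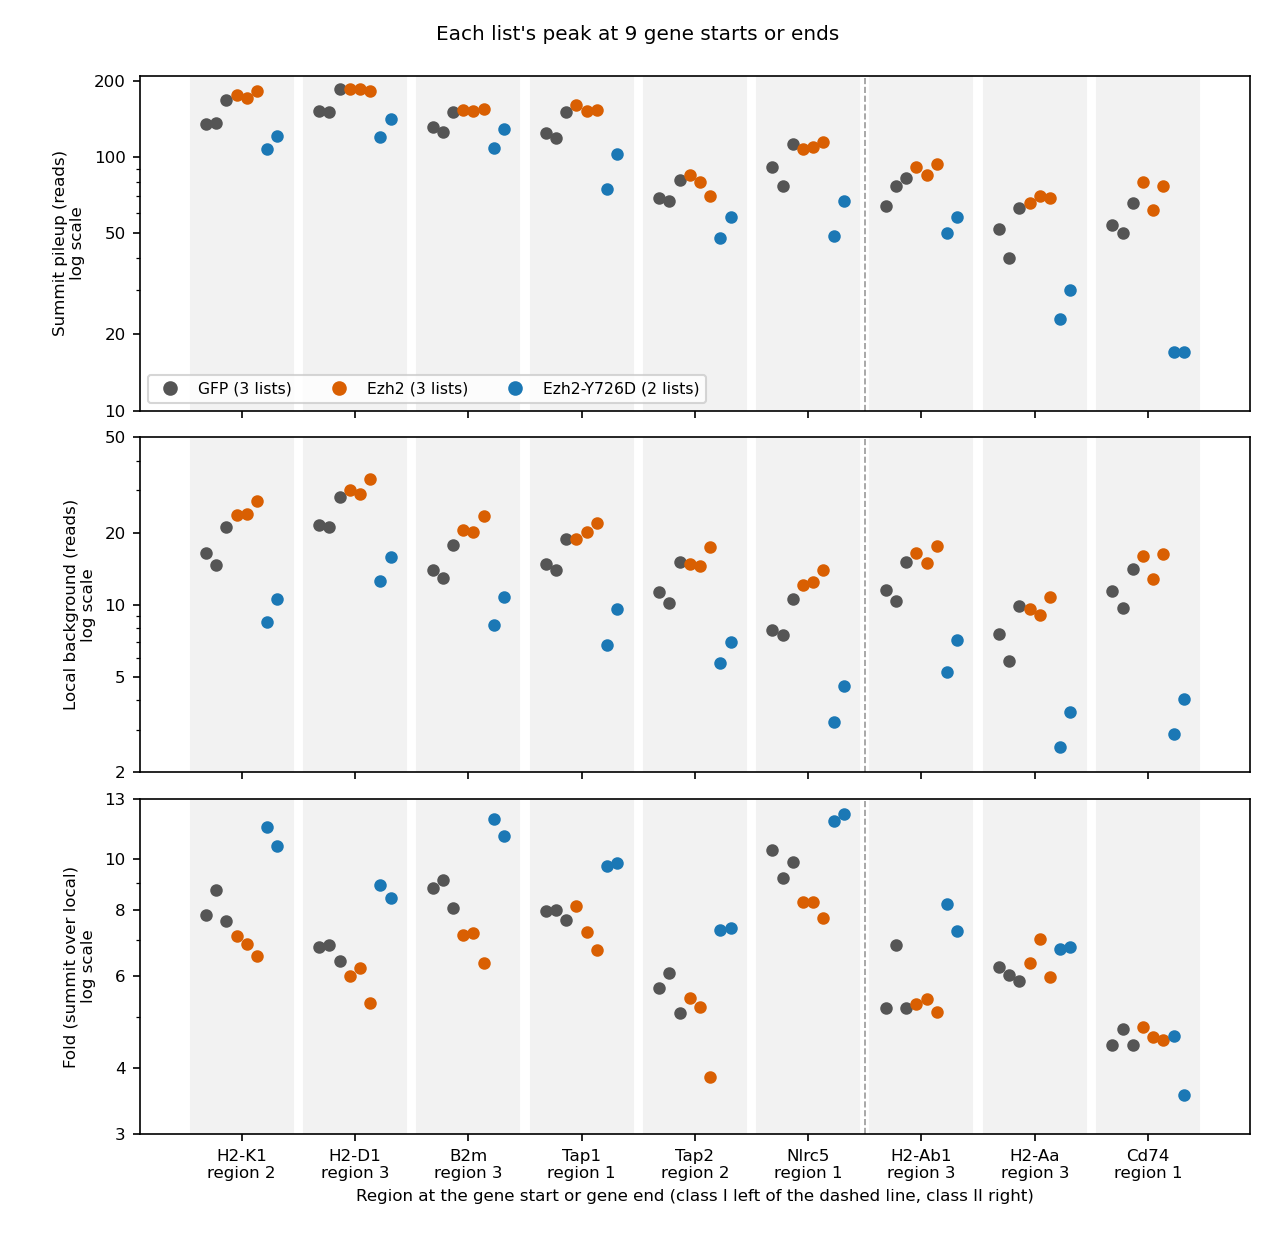
Summit pileup, local background and fold of the peak at the start or end of 9 member genes, in 3 panels with log-scaled y axes. Each point is 1 library, coloured by group, and the genes lie along the x axis with class I left of the dashed line. At Cd74 the 2 Ezh2-Y726D libraries had pileups of 17 each, against 50 to 80 in the other 6, and at the class I genes they had the highest folds with the lowest local background.

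The class I heavy chain gene H2-K1 (chromosome 17, 33996012 to 34000619) had its main region over the start site, from 33998806 to 34000972, under the promoter printed above. Its summit was 135, 136 and 168 reads high in GFP, 175, 171 and 182 with Ezh2, and 108 and 121 with Ezh2-Y726D. Its fold ran the other way, at 7.83, 8.72 and 7.63 with GFP, 7.14, 6.89 and 6.53 with Ezh2 and 11.5 and 10.6 with Ezh2-Y726D. The groups did not overlap in raw reads or in fold. Over the genome background the summits were 41.6 to 50.6 in GFP, 50.7 to 56.6 with Ezh2, and 38.7 and 45.2 with Ezh2-Y726D, so that GFP and Ezh2-Y726D overlapped. The pileup rank did not pass between these groups (−0.14, SE 0.09, limma adjusted p = 0.315). By limma, the fold rank was lower in Ezh2 than in Ezh2-Y726D (−1.0, SE 0.18, adjusted p = 0.00595), while the pileup rank was higher by 0.51 (SE 0.09, adjusted p = 0.00791). Between Ezh2 and GFP the pileup rank was higher by 0.37 (SE 0.08, adjusted p = 0.0349) and the fold rank did not pass (−0.37, SE 0.16, adjusted p = 0.228). The local background, the divisor in the fold, was 14.7 to 21.1 reads in GFP, 23.6 to 27.0 with Ezh2, and 8.46 and 10.5 with Ezh2-Y726D. The other region of H2-K1, 3636 bp beyond its far end, was lower by fold rank in Ezh2 than in Ezh2-Y726D (−1.23, SE 0.24, limma adjusted p = 0.00872), with pileups of 36 to 51 that overlapped between groups.

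H2-D1 (chromosome 17, 35263094 to 35267497), the other classical heavy chain gene, repeated this layout over its start site (35262501 to 35264587). Its pileup was 152, 151 and 186 with GFP, 185, 185 and 182 with Ezh2, and 120 and 141 with Ezh2-Y726D. GFP replicate 3 thus reached the Ezh2 level in raw reads. Over the genome background the summits were 46.8 to 56.2 in GFP, 50.7 to 59.8 with Ezh2 and 45.1 to 50.3 with Ezh2-Y726D. On that scale GFP overlapped with both other groups. The fold was 6.81, 6.87 and 6.41 with GFP, 5.98, 6.20 and 5.32 with Ezh2, and 8.92 and 8.43 with Ezh2-Y726D. In Ezh2 against Ezh2-Y726D the fold rank was lower (−0.77, SE 0.18, limma adjusted p = 0.0222) and the pileup rank was higher by 0.43 (SE 0.09, adjusted p = 0.018). Of the other H2-D1 regions, the one 4553 bp upstream was lower by fold rank (−0.85, SE 0.21, adjusted p = 0.0269), and the one 2060 bp beyond the far end was higher by pileup rank (1.15, SE 0.23, adjusted p = 0.0156). The latter also passed by pileup rank in Ezh2-Y726D against GFP (−0.93, SE 0.23, adjusted p = 0.0387). H2-K1 and H2-D1 are close relatives, as are the H2-Q and H2-T genes, and reads that could be placed at several of them may have been lost to the mapping quality filter.

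B2m (chromosome 2, 122147687 to 122153082), the light chain of class I molecules, had its start region at 122147117 to 122148934, within the overlapping gene Patl2. The fold was 8.81, 9.11 and 8.08 with GFP, 7.16, 7.24 and 6.35 with Ezh2, and 11.9 and 11.1 with Ezh2-Y726D, again without overlap between groups. Its rank was lower in Ezh2 than in Ezh2-Y726D (−1.08, SE 0.18, limma adjusted p = 0.0052). The pileup, at 131, 126 and 151 with GFP, 153, 152 and 155 with Ezh2 and 109 and 129 with Ezh2-Y726D, did not pass in rank (0.13, SE 0.07, adjusted p = 0.22). At B2m only the ratio to its surroundings passed the test.

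Among the peptide transporter genes, Tap1 (chromosome 17, 34187556 to 34197225) shares its start region with Psmb9, an immunoproteasome gene on the opposite side, so a peak there belongs to both. Its pileup was 125, 119 and 150 with GFP, 160, 152 and 153 with Ezh2 and 75 and 103 with Ezh2-Y726D, and its rank was higher in Ezh2 than in Ezh2-Y726D by 0.54 (SE 0.09, limma adjusted p = 0.00821). The fold of this region did not pass (−0.51, SE 0.18, adjusted p = 0.0922). The region at the far end of Tap1, which runs into Psmb8, did pass by fold rank (−1.33, SE 0.26, adjusted p = 0.00967) and not by pileup (0.19, SE 0.09, adjusted p = 0.198). Tap2 (chromosome 17, 34204479 to 34216321) had 3 testable regions, and their pileup ranks were all higher in Ezh2 than in Ezh2-Y726D, by 0.33 to 0.86 with adjusted p between 0.00263 and 0.0429. Its strongest region, 2033 bp beyond one end, stood at percentiles of 94.0 to 97.5 in all libraries, so the change in reads there left its place among the folds nearly as it was.

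The gene end region of Nlrc5, at 94433636 to 94434720, had a pileup of 91, 77 and 113 with GFP, 108, 110 and 115 with Ezh2, and 49 and 67 with Ezh2-Y726D. Both Ezh2-Y726D values lay below all others, and the pileup rank was lower than in GFP (−0.40, SE 0.08, limma adjusted p = 0.0206) and higher in Ezh2 than in Ezh2-Y726D by 0.53 (SE 0.08, adjusted p = 0.00614). The fold, at 10.4, 9.20 and 9.88 with GFP, 8.30, 8.28 and 7.73 with Ezh2 and 11.8 and 12.2 with Ezh2-Y726D, again put the same libraries in the opposite order, with a rank lower in Ezh2 than in Ezh2-Y726D (−0.84, SE 0.19, adjusted p = 0.0182). An inner region at 94491838 to 94492788 stood apart from this. Its raw pileup of 69, 62 and 76 with GFP, 60, 66 and 69 with Ezh2, and 59 and 76 with Ezh2-Y726D overlapped between all groups. Over the genome background its summits were 20.3 to 23.1 in GFP, 19.2 to 19.8 with Ezh2 and 24.3 to 24.7 with Ezh2-Y726D. These did not overlap and ran in the order of the fold. Its pileup rank did not pass in Ezh2 against Ezh2-Y726D (−0.12, SE 0.08, limma adjusted p = 0.289). Its fold rank was lower in Ezh2 than in Ezh2-Y726D (−0.60, SE 0.17, adjusted p = 0.0382), as was that of the region at 94515243 (−1.43, SE 0.29, adjusted p = 0.0115). The pileup rank of the region at 94515243 went the same way as its fold rank but did not pass (−1.18, SE 0.40, adjusted p = 0.0785). The region at 94485159 was lower by pileup rank in Ezh2-Y726D than in GFP (−0.59, SE 0.11, adjusted p = 0.0127) and higher in Ezh2 than in Ezh2-Y726D (0.69, SE 0.11, adjusted p = 0.00567).

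At the class II genes the pileup gaps to Ezh2-Y726D were wider on the median than at the class I genes, a difference that was not itself tested. At H2-Aa (chromosome 17, 34282744 to 34287823), which encodes the class II alpha chain, the start region at 34287551 to 34288238 had a pileup of 52, 40 and 63 with GFP, 66, 70 and 69 with Ezh2, and 23 and 30 with Ezh2-Y726D. Its pileup rank was lower in Ezh2-Y726D than in GFP (−1.07, SE 0.10, limma adjusted p = 0.00162) and higher in Ezh2 than in Ezh2-Y726D by 1.37 (SE 0.10, adjusted p = 0.000434). Its fold differed little, at 6.22, 6.03 and 5.87 with GFP, 6.34, 7.04 and 5.95 with Ezh2 and 6.74 and 6.80 with Ezh2-Y726D, and none of the fold comparisons passed. The region 3773 bp upstream had pileups of 45, 51 and 70, then 58, 69 and 73, then 29 and 45, and its pileup rank was lower in Ezh2-Y726D than in GFP (−0.57, SE 0.14, adjusted p = 0.0391).

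H2-Ab1 (chromosome 17, 34263227 to 34269418), the class II beta chain gene, had its clearest change not over the gene end but 4980 bp beyond it, from 34257516 to 34258247. There the pileup was 49, 32 and 52 with GFP, 64, 55 and 63 with Ezh2 and 15 and 22 with Ezh2-Y726D. Relative to GFP the pileup rank in Ezh2-Y726D was lower (−1.62, SE 0.16, limma adjusted p = 0.00208), and Ezh2 exceeded Ezh2-Y726D by 2.01 (SE 0.16, adjusted p = 0.000658). It was the one member region whose fold rank was also higher in Ezh2 than in Ezh2-Y726D (0.78, SE 0.23, adjusted p = 0.0491). The region over the gene end (34262913 to 34263687) moved less, with a pileup rank higher by 0.42 for Ezh2 than for Ezh2-Y726D (SE 0.09, adjusted p = 0.0177). The region 1233 bp beyond that end was lower by pileup rank in Ezh2-Y726D than in GFP (−0.98, SE 0.12, adjusted p = 0.00339). The one inside the gene, from 34264540 to 34265324, was higher in Ezh2 than in Ezh2-Y726D (1.10, SE 0.20, adjusted p = 0.0114).

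Cd74 (chromosome 18, 60803849 to 60812652), the invariant chain that guards new class II molecules, showed the widest gap in pileup rank among the 25 regions. Its gene end region, at 60803154 to 60804100, had summits of 54, 50 and 66 reads in GFP, 80, 62 and 77 with Ezh2, and 17 in both Ezh2-Y726D libraries. In units of the genome background the GFP summits were 16.6 to 18.6, the Ezh2 summits 18.6 to 25.9 and the Ezh2-Y726D summits 7.12 and 5.44. The pileup rank was lower in Ezh2-Y726D than in GFP (−2.13, SE 0.16, limma adjusted p = 0.000968) and higher in Ezh2 than in Ezh2-Y726D by 2.35 (SE 0.16, adjusted p = 0.000404). The local background was lower as well (2.90 and 4.06 reads in Ezh2-Y726D, 9.74 to 16.2 in the others), and the fold overlapped between groups, at 4.42, 4.75 and 4.43 with GFP, 4.79, 4.58 and 4.52 with Ezh2, and 4.62 and 3.56 with Ezh2-Y726D. An inner region, from 60806552 to 60807518, shows how far the 2 measures can part. It was missing from Ezh2 replicate 2, and its fold percentile was 1.28, 1.30 and 4.17 with GFP, 0.665 and 1.45 with Ezh2, and 58.8 and 65.6 with Ezh2-Y726D, while its pileup was 34, 29 and 44, then 43 and 47, then 22 and 33.

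Over the 25 testable member regions, Ezh2 against Ezh2-Y726D gave 16 higher by pileup rank (64.0%, with 12.1% of all 69493 regions higher) and 0 lower, with 9.79% of all regions lower. At an unadjusted limma p under 0.05 the counts were 16 higher and 1 lower, with 12641 and 12697 of all 69493 regions. The 16 comprised 9 of 17 class I and 7 of 8 class II regions. Fewer passed without Ezh2-Y726D replicate 1, among members and among all regions, but that fit leaves the group 1 library. By fold rank the picture was the reverse for class I, with 10 regions lower (40.0%, with 6.96% of all regions lower) and 1 higher (4.00%, with 7% of all regions higher). Of the 10, 9 were class I (2 at H2-K1, 2 at H2-D1, 1 at B2m, 1 at Tap1 and 3 at Nlrc5) and 1 was at H2-Aa, 3773 bp upstream of its start. The 11 fold calls became 6 without Ezh2 replicate 3, where 11.0% of all regions passed in either direction. Fewer passed without either Ezh2-Y726D library, among members and among all regions, but those fits leave the group 1 library. Ranked by −log10 p, the direction turned, with 5 member regions higher (20%, with 8.47% of all regions higher) and 0 lower, with 5.73% of all regions lower. The median difference in pileup rank was 0.33 for class I, 1.08 for class II and −0.03 for all regions, and that in fold rank was −0.84, −0.25 and 0.02.

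Ezh2-Y726D against GFP gave 10 member regions lower by pileup rank (40.0%, with 10.4% of all regions lower) and 0 higher, with 6.38% of all regions higher. The 10 were 5 class I regions (1 at H2-D1, 2 at Tap2 and 2 at Nlrc5) and 5 class II regions (2 at H2-Ab1, 2 at H2-Aa and 1 at Cd74). At an unadjusted limma p under 0.05, 14 were lower and 0 higher, with 11553 and 11204 of all 69493 regions. The 10 became 6 without GFP replicate 3, where 12.6% of all regions passed in either direction. Fewer also passed without Ezh2-Y726D replicate 1, among members and among all regions, but that fit leaves the group 1 library. By fold rank 0 member regions passed in either direction, with 3.55% of all regions higher and 4.65% lower. At an unadjusted limma p under 0.05 there were 11 higher and 0 lower by fold rank, with 8346 and 8616 of all 69493 regions. The median difference in pileup rank was −0.15 for class I, −0.80 for class II and 0.03 for all regions.

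Ezh2 against GFP gave 1 member region higher by pileup rank, the H2-K1 start region (4.00%, with 3.14% of all regions higher), and 0 lower, with 4.51% of all regions lower. That call was lost without any one of the 3 GFP or the 3 Ezh2 libraries. At an unadjusted limma p under 0.05, 8 were higher and 0 lower by pileup rank, with 8379 and 8600 of all 69493 regions. By fold rank 0 passed, with 1.59% of all regions higher and 2.84% lower. At an unadjusted limma p under 0.05, 6 were lower and 0 higher by fold rank, with 7004 and 6899 of all 69493 regions. Thus the share called between these groups was near that of all regions, and the median difference in pileup rank was 0.09 for class I, 0.20 for class II and 0.01 for all regions. The difference between the effects of Ezh2 and of Ezh2-Y726D relative to GFP is the Ezh2 against Ezh2-Y726D comparison given above, since both share the GFP libraries.

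**Figure D4:**
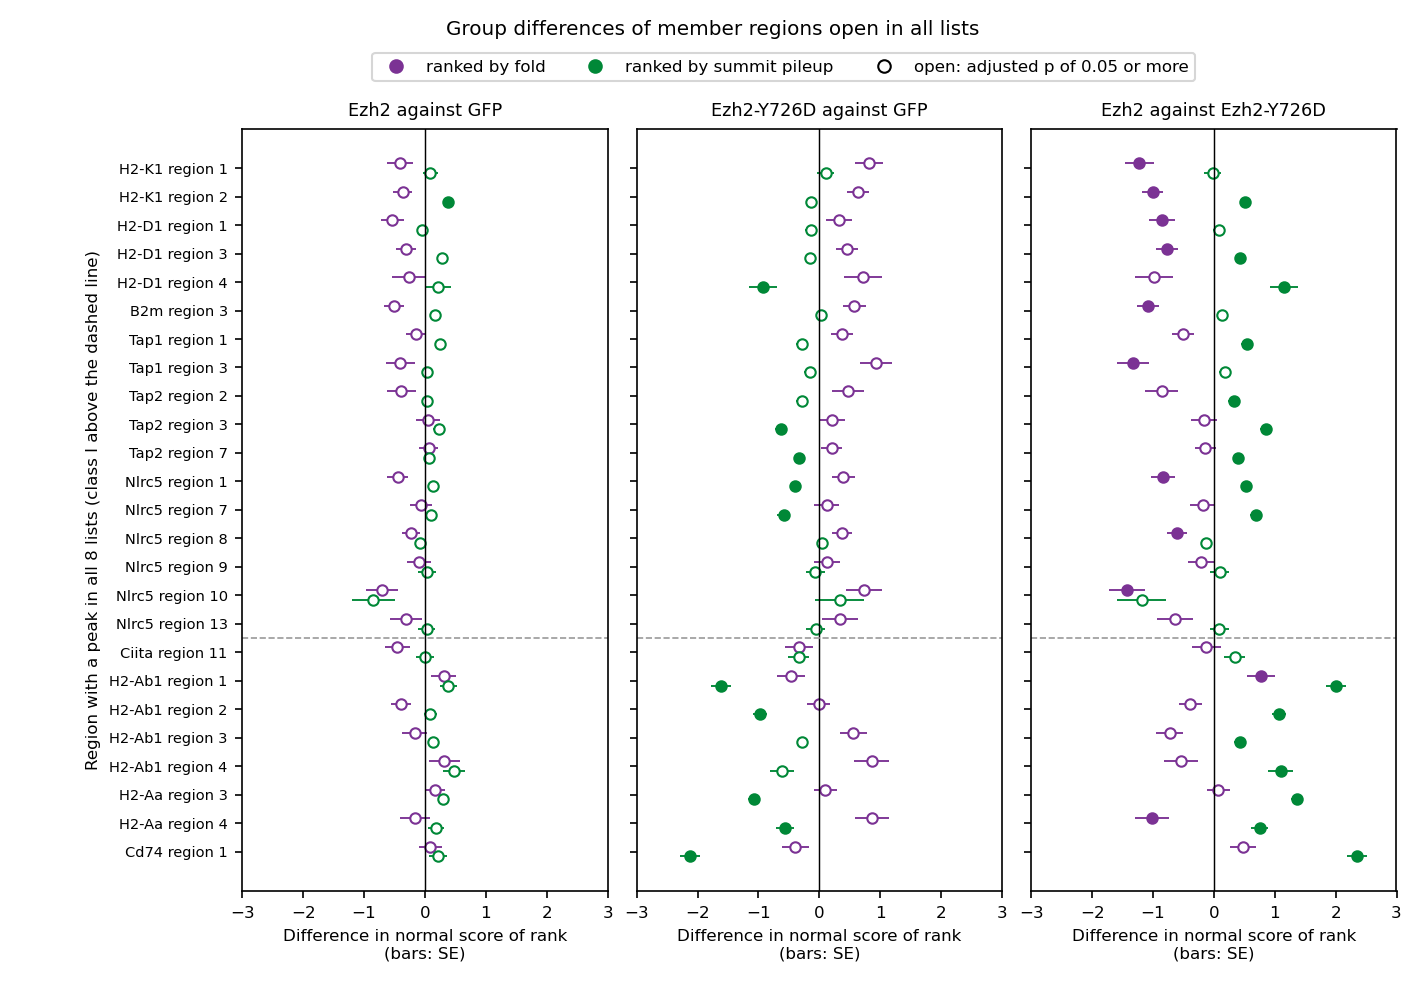
Group differences of the 25 member regions open in all 8 libraries, ranked by fold and by summit pileup. The x axis is the difference in normal score with its SE as a bar, each row is 1 region with class I above the dashed line, the 3 panels are the 3 comparisons, and filled points had an adjusted p under 0.05. In Ezh2 against Ezh2-Y726D all 17 class I regions lie below 0 by fold, and 14 of them lie above 0 by pileup.

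The local background differed between groups at most of the 25 regions. The local background is the read density that the peak caller expected around a summit, and it was divided by the genome-wide background of the same library, which was 2.39 to 3.74 reads. Around the gene end region of Nlrc5 this ratio was 2.67 ± 0.224 (SD) with GFP, 3.85 ± 0.111 with Ezh2 and 1.41 ± 0.0775 with Ezh2-Y726D. For Cd74 it was 3.64 ± 0.131, 4.50 ± 0.658 and 1.26 ± 0.0605, so the DNA around Cd74 stood close to the genome average in Ezh2-Y726D. In Ezh2 against Ezh2-Y726D, 16 of 17 class I and all 8 class II regions had a higher local background in every Ezh2 library (26.7% of all regions did) and 0 a lower one (40.1% of all regions). Relative to GFP, the Ezh2-Y726D libraries were without overlap lower in 16 class I and 7 class II regions (22% of all regions) and higher in 0 (36.2% of all regions). The Ezh2 libraries were higher than GFP in 13 class I and 8 class II regions (17.3% of all regions) and lower in 0 (18.5% of all regions). In each list, 41226 to 54306 peaks stood at the genome-wide background itself. There, groups could part by rounding of the deposited folds alone. The shares of all regions therefore include such differences and are only a loose comparison for the member regions. The median ratio of Ezh2 to Ezh2-Y726D was 1.79 for class I and 2.35 for class II, against 0.994 for all regions.

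**Figure D5:**
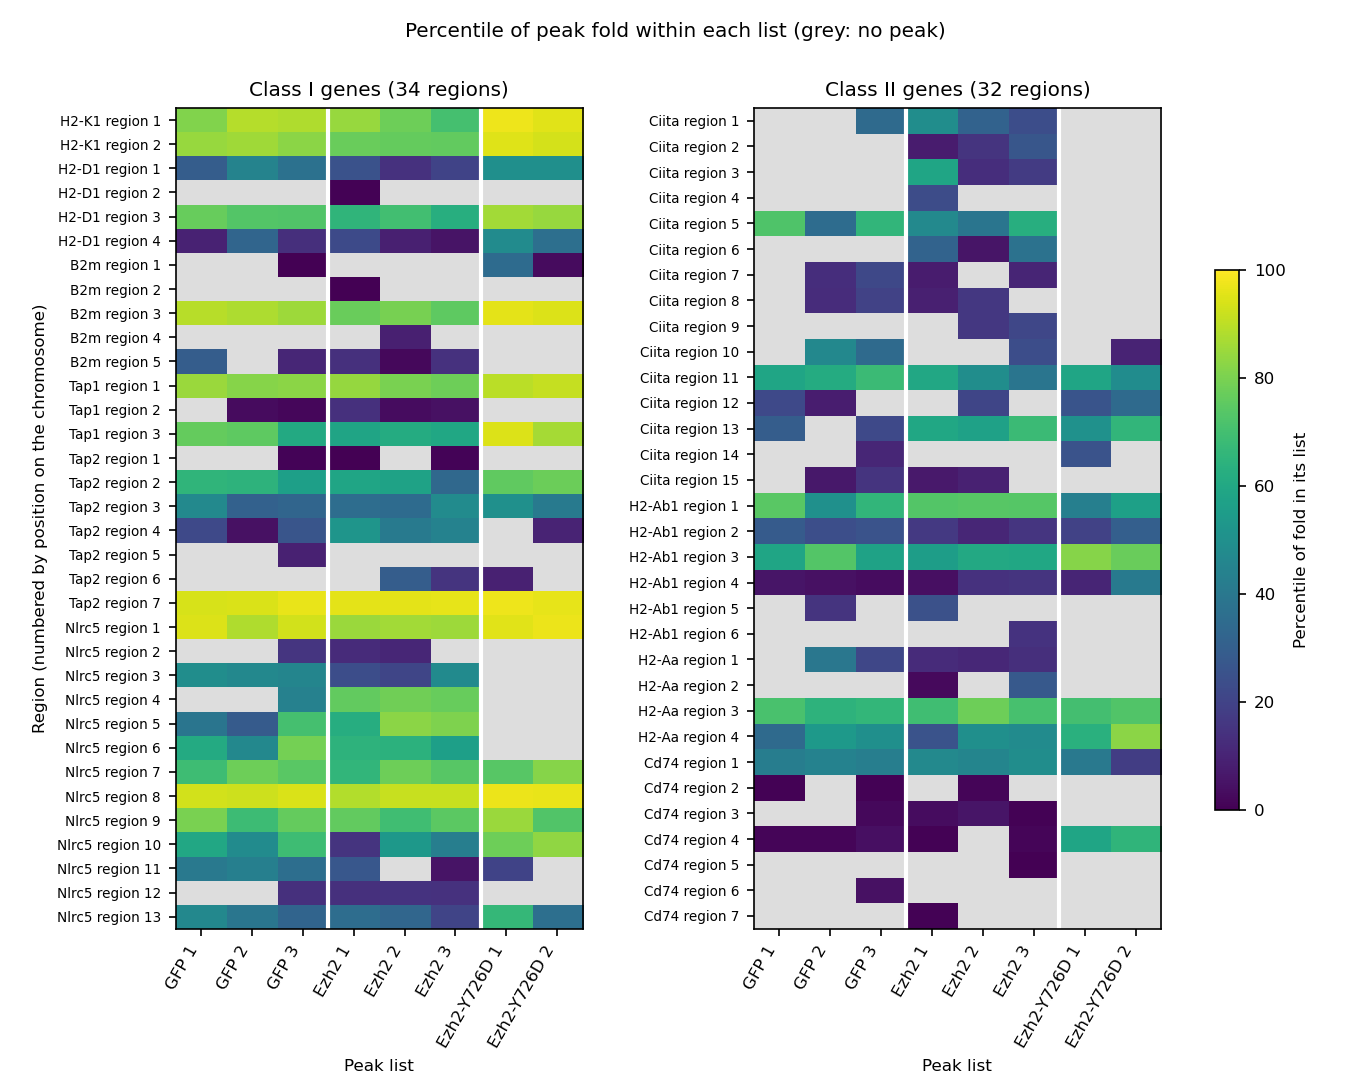
Fold percentile of the 66 member regions in each library. Each row is 1 region, each column is 1 library, colour gives the percentile of the fold within that list from 0 to 100, and grey marks a region without a peak. The H2-K1 start region (region 2) stood at 76.0 to 77.2 with Ezh2 and at 93.4 and 95.2 with Ezh2-Y726D, while more rows are grey in the Ezh2-Y726D columns.

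Other genes of the same pathway were counted from fixed lists, leaving out the 10 member genes, though some windows overlap. A gene counted when at least 1 region in its window passed, so genes with many regions count more easily, and no list was tested against another. Of 14 further class I chain genes, 10 had a region with a higher pileup rank in Ezh2 than in Ezh2-Y726D (24.2% of all 18172 genes did) and 0 had a lower one (14.3% of all genes). By fold rank 3 had a lower one (12.4% of all genes) and 1 a higher one (14.7% of all genes). In Ezh2-Y726D against GFP, 7 had a lower pileup rank (20.6% of all genes) and 0 a higher one (10.5% of all genes). The H2-Q4 region at 35379020 to 35380845 on chromosome 17, for example, was lower in Ezh2-Y726D than in GFP (−0.48, SE 0.08, limma adjusted p = 0.0109), and so was the region at 36031309 (−0.32, SE 0.08, adjusted p = 0.041), which lies in the windows of both H2-T22 and H2-T23 and counts for each. Of 11 genes that cut, trim or load class I peptides, 4 had a region with a higher pileup rank in Ezh2 than in Ezh2-Y726D. A lower one was found for 0, and the shares of all genes were 24.2% and 14.3%. The higher regions counted for Psmb8 and Psmb9 were Tap2 regions 2 and 3 and Tap1 region 1, described above. Only Canx and Pdia3 thus had higher regions of their own. By fold rank 2 of the 11 genes had a lower region (12.4% of all genes) and 1 a higher one (14.7% of all genes). The lower region counted for Psmb8 was Tap1 region 3, described above, so only Tapbpl had a lower region of its own.

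In the class II pathway, the lists held 2 further chain genes and 9 genes of loading and processing. In Ezh2 against Ezh2-Y726D, the chain gene H2-Eb1 had 3 regions higher by pileup rank and 1 gained, and H2-Eb2 had 4 gained. Of all genes, 24.2% had at least 1 region higher by pileup rank there and 32.6% had at least 1 gained. In Ezh2-Y726D against GFP, H2-Eb1 had 1 region lower by pileup rank (20.6% of all genes did). H2-Eb2 had 1 lost, with 4.72% of all regions lost. H2-Eb1 also had 1 region gained in Ezh2 against GFP, with 2.72% of all regions gained. Of the 9 loading and processing genes, 5 had a lower region by pileup rank in Ezh2-Y726D than in GFP (H2-DMb1, H2-DMb2, H2-Ob, Lgmn and Marchf1). A higher one was found for 0, and of all genes 20.6% had a lower and 10.5% a higher one. H2-DMb1 and H2-DMb2, which encode beta chains of the chaperone that swaps Cd74 fragments for peptide, share a region at 34152711 to 34153635 on chromosome 17. It was lower in Ezh2-Y726D than in GFP both by pileup rank (−1.61, SE 0.14, limma adjusted p = 0.00146) and by fold rank (−1.87, SE 0.23, adjusted p = 0.00298). In Ezh2 against Ezh2-Y726D, 5 of the 9 had a higher and 1 (Lgmn) a lower region by pileup rank (24.2% and 14.3% of all genes). By fold rank 3 had a higher and 0 a lower one (14.7% and 12.4% of all genes). Of the 9 genes, 8 had a region gained in that comparison (32.6% of all genes did) and 4 had one lost (20.4% of all genes). The protease gene Ctss had 4 such gained regions.

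Of 10 regulators besides Nlrc5 and Ciita, 4 had a region higher by pileup rank in Ezh2 than in Ezh2-Y726D (Irf1 and Irf2 among them). A lower one was found for 1 (Rfxank), and by fold rank 5 had a lower and 1 a higher one. Of all genes, 24.2% had a higher and 14.3% a lower one by pileup rank. By fold rank 12.4% of all genes had a lower and 14.7% a higher one. For Irf1, an interferon-responsive factor, the same region (53769363 to 53770877 on chromosome 11) was higher by 0.36 in pileup rank (SE 0.09, limma adjusted p = 0.0298) and lower in fold rank (−0.77, SE 0.20, adjusted p = 0.0289). A region of Rfxank, a subunit of the complex on the X box, was lower in Ezh2 than in GFP by both measures (−1.03 in pileup rank, SE 0.20, adjusted p = 0.0308, and −1.44 in fold rank, SE 0.27, adjusted p = 0.0202). Costimulatory genes give T cells their second signal or restrain it. Of 6 such genes, 5 had a region gained in Ezh2 against Ezh2-Y726D (32.6% of all genes did) and 2 had one lost (20.4% of all genes). By pileup rank 3 had a higher and 0 a lower region there, and by fold rank 4 had a lower and 1 a higher one. The shares of all genes by rank were those given for the regulators. Cd86 had 8 gained and 2 lost, and the Cd40 region at 165055008 to 165056184 on chromosome 2 had a pileup rank lower in Ezh2-Y726D than in GFP (−1.36, SE 0.15, adjusted p = 0.00267).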

How the data were processed

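ATAC-seq, which sequences DNA cut by a transposase in open chromatin, was analysed in 8 libraries grouped by their titles. The authors called peaks in each library separately. The submitters' processing notes name cutadapt, Bowtie2, SAMtools, Picard, MACS2 and deepTools, with no versions, and the build GRCm38. Peak names carry tags for mapping quality filtering, sorting and duplicate removal. The lists deposited by the authors give each peak a fold (summit pileup over local background, 1 added to each), a −log10 p-value and a −log10 q-value. They hold no read totals, so depth is unknown and no counting interval is given. Pileup and local background were recovered from fold and −log10 p under a Poisson model, which matched 100% of peaks within 0.005. The genome background was the lowest local background of a list.

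Peaks of the 8 lists sharing at least 1 bp were merged into regions. Gene positions and promoters came from RefSeq (GRCm38.p6). Where a gene had no promoter entry, either gene end stood in for its start. Regions open in all 8 lists were ranked within each list, turned into normal scores and compared with limma 3.58.1 (R 4.3.3, lmFit and eBayes, all 8 libraries in 1 fit). P-values were adjusted by Benjamini-Hochberg over all 69493 regions, with a threshold of 0.05. Counts of a single gene were compared by a two-sided exact permutation test, whose smallest p is 0.1 for 3 against 3 and 0.2 for 2 against 3 libraries. On simulated fold scores with 200 of 69493 regions shifted in each of the 3 comparisons, limma recovered 79% to 86.5% of shifts of 2 units. It recovered 0% of shifts of 1 unit. Far more than 200 regions passed in the real comparisons, which loosens the adjusted threshold, and pileup ranks were not simulated. These shares therefore do not give the power of the fits reported.

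Members and lists were chosen with earlier results of these data known. Named were, for each member, the region at its start or ends, those that passed or were gained or lost, and the one with the highest mean percentile. Other pathway genes were named only where a region passed or was gained or lost. Some items are not reported here. Libraries with the same number in their titles were not paired, since their deviations correlated between −0.0151 and 0.0478. Alternatives were ranking by −log10 p or pileup, raw percentiles, a −log10 q of at least 5, lists cut to 112939 peaks, a 1 kb window, peaks over at least 0.5 of a region, a replicate block and leaving out each library. Python 3.11.15, NumPy 2.4.6, pandas 2.3.3, SciPy 1.17.1 and Matplotlib 3.10.9 were used.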

Additional observations from a re-analysis of the deposited data

How the results depend on the processing

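Counts per comparison recomputed under the alternatives were alike in 117 cases (within 1.5 times, or within 1 SD for class counts), moved in 36 and turned direction in 3. Differences of single regions stayed on the same side of the threshold in 1061 cases, no longer passed in 53 and newly passed in 21. They turned sign in 29 further cases, counted only where the difference passed under at least 1 of the 2 settings. The 1061 include turns of sign that passed under neither setting. An example is H2-D1 region 3 in Ezh2 against GFP (−0.32 by fold rank, 0.28 by pileup rank). Ezh2 against Ezh2-Y726D gave 11 fold calls, 10 of them lower. Under −log10 p ranks they became 5, all higher, with 14.2% of all regions passing in either direction. Under summit pileup ranks they became 16, all higher, with 21.9% of all regions passing. They became 7, all lower, in a 1 kb window and 7 with a replicate block by titles, and ranged from 2 to 12 with 1 library left out. For Ezh2-Y726D against GFP the 0 fold calls became 4 lower under −log10 p (7.09% of all regions lower) and 10 lower under pileup (10.4%). They became 1 higher with raw percentiles, where 6.76% of all regions passed in either direction, and 2 higher at a −log10 q of at least 5 (7.13%). With a replicate block they became 1 higher, by titles (6.92%) or by peak names (4.67%). For Ezh2 against GFP the 0 became 1 under pileup. The pileup calls ranged from 0 to 2 in Ezh2 against GFP, from 5 to 9 in Ezh2-Y726D against GFP and from 9 to 16 in Ezh2 against Ezh2-Y726D with 1 library left out. The titles' numbers did not pair the libraries, so the block is given for completeness. The cause was not tested. Without 1 Ezh2-Y726D library that group holds 1 library, assumed to vary like the others.

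Gained or lost regions in Ezh2 against GFP numbered 1, a loss, at a −log10 q of at least 5 and 0 with lists of equal length, and 3 to 7 with 1 library left out. Those in Ezh2-Y726D against GFP ranged from 5 to 9, and those in Ezh2 against Ezh2-Y726D from 15 to 19, when 1 library was left out. The latter were 7 at a −log10 q of at least 5 and 8 at equal length. The class II difference between Ezh2 and GFP was 2 regions at that −log10 q and 1.33 at equal length. Between Ezh2 and Ezh2-Y726D the class I difference was 6.5 and 7.17 regions and the class II difference 3.83 and 5.5, and 7 in the 1 kb window. Fewer peaks or regions enter under each of these settings.

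Single regions that passed under at least 1 of the 2 settings turned sign as follows, in normal-score units. By pileup rank, H2-K1 region 2 gave 0.37 in Ezh2 against GFP. In Ezh2-Y726D against GFP, pileup ranks gave −0.63 and −0.33 for Tap2 regions 3 and 7, −0.93 for H2-D1 region 4, −0.40 and −0.59 for Nlrc5 regions 1 and 7, and −1.07 and −0.57 for H2-Aa regions 3 and 4, and −log10 p gave −0.63 for H2-Aa region 3. In Ezh2 against Ezh2-Y726D, pileup ranks gave 0.51 for H2-K1 region 2, 0.54 and 0.19 for Tap1 regions 1 and 3, 0.33, 0.86 and 0.40 for Tap2 regions 2, 3 and 7, 0.0864, 0.43 and 1.15 for H2-D1 regions 1, 3 and 4, 0.13 for B2m region 3, 0.53 and 0.69 for Nlrc5 regions 1 and 7, 1.07, 0.42 and 1.10 for H2-Ab1 regions 2, 3 and 4, and 0.75 for H2-Aa region 4. There −log10 p ranks gave 0.71 for Tap2 region 3, 0.20 for Nlrc5 region 1, 0.67 for H2-Ab1 region 2 and 0.14 for H2-Aa region 4. Depth is unknown, so a region without a peak was not detectable rather than closed.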
